A study of Mus musculus with 16 samples.

Results

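The G2/M and mitosis genes are a set of 43 genes whose products drive cells from the G2 phase into mitosis and then separate the chromosomes and the daughter cells. They were listed by gene symbol, and the list was chosen with earlier results of these data known. For each gene, the probe set with the highest mean intensity over the 16 arrays was used, which gave 41 genes of the 10252 named genes that were tested. Ccnb1 and Espl1 had no probe set carrying that symbol alone and were not analysed here. RNA came from mouse embryonic stem (ES) cells, which are taken from the early blastocyst and divide fast, and was measured on Affymetrix MOE430A arrays. In all 16 samples the cells were cultured with LIF at 1000 U per ml and 15% serum and left 1 h on gelatin. The groups were KO cells, homozygous for an inactivated allele, and WT cells of the same intercross. Each genotype was sampled when growing (3 arrays), 2 h after gamma irradiation (3 arrays) and 24 h after it (2 arrays). The 2 h samples had received 8 Gy, and for 24 h the sources used here give no dose. Lines were derived from blastocysts of heterozygous parents on a mixed 129 and C56Bl/6 background. The sources used here do not say how many lines stand behind each group. The labels number the samples as experiments and do not say that cultures were separate, so a p-value here reflects only how far these samples scatter, and that scatter may be technical. Where the fit with that experiment number as a block, the replicate block, changed a call, its value is given. Every irradiated group was set against growing cells. Time in culture and irradiation cannot be told apart, since no unirradiated cells of the same time are among the samples.

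Mitosis is started by Cdk1 bound to a B-type cyclin, which the phosphatase Cdc25c switches on. The spindle checkpoint then holds the anaphase-promoting complex until every kinetochore is attached, after which securin is destroyed, separase cuts cohesin and the cell divides. The genes of this programme are transcribed mainly in S phase and G2, through factors that bind CCAAT boxes and the cell cycle genes homology region (CHR). DNA breaks stop many cell types in G2 before mitosis, and ES cells, which have a weak G1 arrest, rely on that stop. In bulk RNA, fewer cells in G2 or mitosis and less mitotic RNA per cell cannot be told apart.

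The deposited intensities had been scaled to the same trimmed mean on every array, and array medians lay between 26.7 and 37.4. The 18S ribosomal control stood apart on WT growing replicate 1 and KO 2 h replicate 2, with mean signals of 459 and 2055, so calls that ended without these arrays are also given without them. All 10 ES cell markers were above the level of dim probe sets in every group. The cells had been grown on feeder fibroblasts, and the signal of genes listed as fibroblast markers differed between arrays. Whether that signal came from feeder cells or from the ES cultures was not tested. The summed intensity of 19 fibroblast genes was 3199 to 4494 in growing KO cells, 3148 to 3681 at 2 h and 4091 to 5033 at 24 h. In WT cells the same sum was 2451 to 5852 when growing, 2775 to 5590.0 at 2 h and 4491 to 4685 at 24 h. None of the 19 was at 0 on any array, and their part in the results below was not tested.

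Across the 41 genes, the mean of log2(intensity + 16) was 8.45, 8.34 and 8.42 on the growing KO arrays, 8.27, 8.20 and 8.27 on the KO arrays at 2 h and 8.65 and 8.47 on the KO arrays at 24 h. In WT cells it was 8.53, 8.44 and 8.37 when growing, 8.44, 8.35 and 8.36 at 2 h and 8.82 and 8.60 at 24 h. In KO cells all arrays at 2 h lay below all growing arrays and all arrays at 24 h lay above them, while in WT cells the 2 h arrays overlapped the growing arrays and the 24 h arrays lay above. The state with the highest mean was 24 h for 30 of 41 genes in KO cells and for 33 of 41 in WT cells. The dim gene Cenpe is 1 of these 30. It was tested only because of its KO 24 h mean, so its place there is no separate result. The state with the lowest mean was 2 h for 30 of 41 genes in KO cells and for 23 of 41 in WT cells. These counts were not made over all probe sets, so they do not show a trait particular to mitotic genes, and each 24 h mean rests on 2 arrays. Of all probe sets, 27.9% lay above growing cells without overlap at 24 h in KO cells and 14.2% below, with 20.5% and 15.1% in WT cells. In both genotypes replicate 1 at 24 h was higher than replicate 2, and each pair of arrays at 24 h came from different hybridisation runs.

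**Figure D1:**
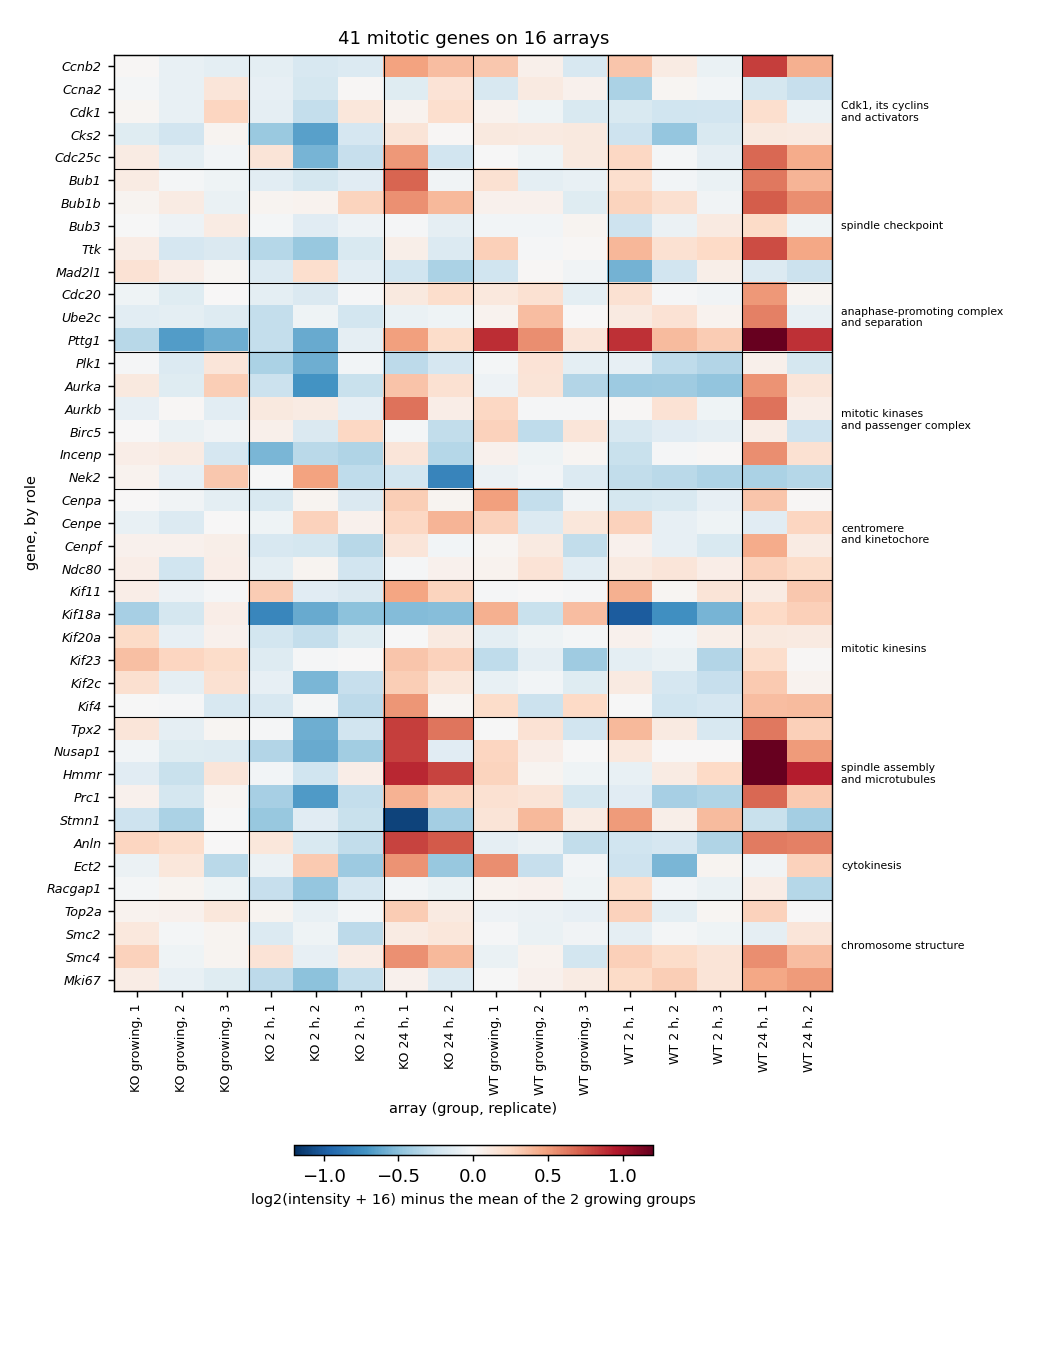
Level of the 41 mitotic genes (down the page, grouped by role) on each of the 16 arrays (across, KO left of WT), as log2(intensity + 16) minus the mean of the growing groups of both genotypes, with red for higher and blue for lower. Colours stop at the ends of the scale. The Hmmr row is deep red on the 24 h arrays, and the Pttg1 row is blue in growing KO cells and red in WT cells.

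The promoters of the members were searched for the binding letters of the mitotic programme. RefSeq promoter windows on GRCm38.p6, 250 bases before to 50 bases after the start of transcription, were matched by symbol for 33 of the 41 genes, in 36 windows. The CHR was searched as TTTGAA and as its reverse complement TTCAAA, and the CCAAT box as CCAAT and as ATTGG, so that both strands were covered. At least 1 CHR letter match lay in 27 of 36 windows (75.0%), against 17.9% of all 32851 promoter windows of the same length. A CCAAT match lay in 28 of 36 windows (77.8%), against 37.4% of all windows. Both lay in 24 of 36 windows (66.7%), against 6.95% of all windows, and in 0 member windows did matches of the 2 motifs share a base. A match is a description of the letters, and factor binding was not measured here. Whether the matches bear on the changes between states was not tested. The windows of Hmmr, Anln and Bub1b are printed because these genes had the clearest rise at 24 h, and those of Ttk and Pttg1 because they were lower in KO cells. Capitals mark the matches, and each window runs 5′ to 3′ along its gene. Hmmr lies at chr11:40733388-40733687 on the minus strand, Anln at chr9:22389157-22389456 on the minus strand, Bub1b at chr2:118597961-118598260 on the plus strand, Ttk at chr9:83834439-83834738 on the plus strand and Pttg1 at chr11:43425932-43426231 on the minus strand.
Hmmr: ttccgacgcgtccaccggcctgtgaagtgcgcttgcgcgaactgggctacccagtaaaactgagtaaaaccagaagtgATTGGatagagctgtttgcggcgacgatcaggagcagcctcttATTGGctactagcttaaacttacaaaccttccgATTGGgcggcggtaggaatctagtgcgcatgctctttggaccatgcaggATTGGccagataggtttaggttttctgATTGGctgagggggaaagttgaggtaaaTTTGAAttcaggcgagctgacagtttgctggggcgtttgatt
Anln: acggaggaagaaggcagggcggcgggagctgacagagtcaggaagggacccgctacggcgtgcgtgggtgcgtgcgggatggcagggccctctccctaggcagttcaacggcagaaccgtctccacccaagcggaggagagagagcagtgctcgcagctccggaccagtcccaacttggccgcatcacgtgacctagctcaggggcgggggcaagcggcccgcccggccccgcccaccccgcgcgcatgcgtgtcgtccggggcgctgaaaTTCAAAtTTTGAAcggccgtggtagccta
Bub1b: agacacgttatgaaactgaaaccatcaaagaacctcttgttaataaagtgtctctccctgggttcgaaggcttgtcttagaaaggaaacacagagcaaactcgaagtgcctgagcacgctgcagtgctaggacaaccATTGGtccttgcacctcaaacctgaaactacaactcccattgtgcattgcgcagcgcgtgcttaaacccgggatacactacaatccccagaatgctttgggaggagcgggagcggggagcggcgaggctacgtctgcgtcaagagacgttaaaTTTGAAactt
Ttk: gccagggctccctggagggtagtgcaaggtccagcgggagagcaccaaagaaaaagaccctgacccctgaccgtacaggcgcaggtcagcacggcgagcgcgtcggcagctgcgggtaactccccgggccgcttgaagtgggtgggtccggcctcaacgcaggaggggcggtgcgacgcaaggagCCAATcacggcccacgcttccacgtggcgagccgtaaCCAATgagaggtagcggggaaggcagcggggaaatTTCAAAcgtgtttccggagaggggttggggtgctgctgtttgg
Pttg1: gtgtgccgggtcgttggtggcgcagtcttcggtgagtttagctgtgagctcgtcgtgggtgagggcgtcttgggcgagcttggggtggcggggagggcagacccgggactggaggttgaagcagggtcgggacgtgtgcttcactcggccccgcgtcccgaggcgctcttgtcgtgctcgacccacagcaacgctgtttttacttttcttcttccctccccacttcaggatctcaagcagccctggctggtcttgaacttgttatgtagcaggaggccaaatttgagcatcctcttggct
The Hmmr window held 5 CCAAT matches and 1 CHR match, whose leading base lay 9 bases into the transcript. The Anln window held 2 CHR matches and no CCAAT match. Bub1b had 1 match of each motif, and Ttk had 1 CHR and 2 CCAAT matches. In the Pttg1 window neither motif was found.

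At 24 h after irradiation the mitotic genes that changed mostly rose. In the mean of both genotypes, 10 of 41 were higher than in growing cells and 2 were lower, where 21.0% of all probe sets tested were called in either direction, 13.0% higher and 7.98% lower. A call is an adjusted p under 0.05 from limma with Benjamini-Hochberg adjustment over the 17736 probe sets tested. Lost calls named by gene below mainly cover single arrays, the high-18S arrays, the replicate block and averaged probe sets. Other settings ended further calls, which are counted at the end and mostly not named. Leaving out the second hybridisation day alone ended 27. The risers were Ccnb2, Bub1, Bub1b, Pttg1, Tpx2, Nusap1, Hmmr, Prc1, Anln and Smc4, and those that fell were Nek2 and Stmn1. The median log2 difference over the 41 genes was 0.19, against 0.074 over all probe sets. By genotype, 5 genes rose in KO cells (8.02% of all probe sets called, 5.01% higher) with a member median of 0.12 against 0.11 over all, and 8 rose in WT cells (8.61% called, 5.37% higher) with 0.22 against 0.030. In KO cells the median of the mitotic genes was close to that of all probe sets, and after quantile normalization, which moved the median of all by over 0.1, they were 0.18 and -0.013. Differences below are on the log2(intensity + 16) scale ± SE and intensities are in scaled units, and the added 16 makes the change of dim genes look smaller.

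Spindle assembly genes had the highest median difference at 24 h of the 9 roles, 0.60, in the mean of both genotypes. Of 5 members, 4 were higher and 1 lower, against 13.0% and 7.98% of all probe sets. Hmmr, a spindle and centrosome protein also known as a hyaluronan receptor, measured 284, 258 and 347 in growing KO cells, 306, 263 and 331 in KO cells at 2 h and 599 and 559 in KO cells at 24 h. Hmmr in WT cells measured 381, 319.8 and 301 when growing, 294, 337 and 373 at 2 h and 935 and 614 in the 24 h samples. Every array at 24 h lay above every growing and 2 h array of its genotype. The group means were 579 ± 28.5 at 24 h in KO cells against 296 ± 46.1 in growing KO cells, and 775 ± 227 against 334 ± 41.5 in WT cells (SD, n = 2 and 3). The log2 difference was 0.94 ± 0.18 (adjusted p = 0.00371) in KO, 1.15 ± 0.18 (adjusted p = 0.000607) in WT and 1.05 ± 0.12 (adjusted p = 1.61e-05) in the mean of both. All 4 probe sets of Hmmr were called in that mean, with differences from 0.74 to 1.05. The KO call was lost without array 1 of KO 24 h (adjusted p = 0.0606).

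Tpx2, which activates Aurora A on spindle microtubules, measured 270.0, 225 and 247 in growing KO cells, 241, 156 and 204 in KO cells at 2 h and 443 and 389 in KO cells at 24 h. Tpx2 in WT cells measured 243, 276 and 205 when growing, 324, 263 and 211 at 2 h and 385 and 301 in the 24 h samples. At 24 h both genotypes lay above their growing arrays. The difference was 0.71 ± 0.19 (adjusted p = 0.0274) in KO cells and 0.60 ± 0.13 (adjusted p = 0.00364) in the mean, while a dimmer Tpx2 probe set gave 0.20 and was not called. The KO call was lost without any one of arrays 1, 2 and 3 of KO growing and array 1 of KO 24 h (adjusted p of 0.0523 to 0.209) and with all probe sets of the gene averaged (difference of 0.42, adjusted p = 0.0502). Nusap1, a microtubule-bundling spindle protein, measured 249.8, 230.0 and 229 in growing KO cells, 197, 163 and 188 in KO cells at 2 h and 465 and 232 in KO cells at 24 h. Nusap1 in WT cells measured 310.3, 271 and 256 when growing, 282, 258 and 258 at 2 h and 631 and 372 in the 24 h samples. Both WT arrays at 24 h were above the growing range, while KO replicate 2 fell within it. The difference was 0.77 ± 0.22 (adjusted p = 0.0362) in WT cells and 0.61 ± 0.16 (adjusted p = 0.00906) in the mean, and a dimmer probe set gave 0.23 in the mean and was not called. The mean call was lost without either of array 1 of KO 24 h and array 1 of WT 24 h (adjusted p of 0.0802 to 0.0837, with a difference of 0.37 without array 1 of KO 24 h), and the WT call without any one of arrays 2 and 3 of WT growing and array 1 of WT 24 h (adjusted p of 0.0745 to 0.5, with a difference of 0.40 without array 1 of WT 24 h) and when both high-18S arrays were left out (adjusted p = 0.0525).

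Prc1, which bundles the midzone microtubules of anaphase, measured 319, 263 and 312 in growing KO cells, 229, 185 and 249 in KO cells at 2 h and 415 and 373 in KO cells at 24 h. Prc1 in WT cells measured 351, 343 and 263 when growing, 277, 229.5 and 235 at 2 h and 505 and 386 in the 24 h samples. Arrays at 24 h lay above growing arrays in both genotypes, and arrays at 2 h lay below them in KO cells. Prc1 differed by 0.42 ± 0.12 (adjusted p = 0.0141) between 24 h and growing in the mean of both genotypes, a call lost without either of array 1 of KO 24 h and array 1 of WT 24 h (adjusted p of 0.0645 to 0.0937). Stmn1, or stathmin, which destabilises microtubules, measured 1273, 1163 and 1507 in growing KO cells, 1104, 1381 and 1259 in KO cells at 2 h and 694 and 1142 in KO cells at 24 h. Stmn1 in WT cells measured 1689, 1985 and 1621 when growing, 2174, 1593 and 1983 at 2 h and 1254 and 1141 in the 24 h samples. Stmn1 was lower at 24 h than in any growing array of its genotype, and KO replicate 1 was the lowest. The difference was -0.55 ± 0.13 (adjusted p = 0.00619) in the mean of both genotypes, and its other probe set gave -0.69 and was also called. The call was lost without array 1 of KO 24 h (adjusted p = 0.0611).

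Among genes of cytokinesis, 1 of 3 rose at 24 h in the mean of both genotypes, against 13.0% of all probe sets. Anln, the scaffold of the contractile ring, measured 329, 319 and 274 in growing KO cells, 300.3, 238 and 219 in KO cells at 2 h and 489.7 and 464 in KO cells at 24 h. Anln in WT cells measured 252, 258 and 219 when growing, 228, 234 and 209 at 2 h and 428 and 422 in the 24 h samples. Every array at 24 h lay above every other array of its genotype. The difference was 0.61 ± 0.14 (adjusted p = 0.0132) in KO cells, 0.77 ± 0.14 (adjusted p = 0.0025) in WT cells and 0.69 ± 0.10 (adjusted p = 0.000107) in the mean. The KO call was lost without either of array 3 of KO growing and array 1 of KO 24 h (adjusted p of 0.0625 to 0.12), and the WT and mean calls held in all 28 alternative settings. The other members of this role, the RhoA activator Ect2 and the centralspindlin subunit Racgap1, differed by 0.080 ± 0.20 and -0.093 ± 0.10 and were not called.

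In the spindle checkpoint, 2 of 5 members were higher at 24 h in the mean of both genotypes, against 13.0% of all probe sets. Bub1b, the BubR1 protein that blocks the anaphase-promoting complex, measured 321, 336 and 297 in growing KO cells, 323, 324 and 381 in KO cells at 2 h and 465 and 415 in KO cells at 24 h. Bub1b in WT cells measured 325, 326 and 283 when growing, 380.4, 361 and 304 at 2 h and 530.1 and 469 in the 24 h samples. In both genotypes the arrays at 24 h lay above all others. The difference was 0.45 ± 0.14 (adjusted p = 0.0488) in KO cells, 0.66 ± 0.14 (adjusted p = 0.00594) in WT cells and 0.55 ± 0.096 (adjusted p = 0.000548) in the mean. The KO call lay close to the threshold and was lost in 12 of the 16 fits that left out 1 array, without any one of arrays 1, 2 and 3 of KO growing, arrays 1, 2 and 3 of KO 2 h, arrays 1 and 2 of KO 24 h, arrays 1 and 2 of WT growing and arrays 1 and 2 of WT 2 h (adjusted p of 0.0501 to 0.289). It was also lost when both high-18S arrays were left out (adjusted p = 0.0621) and with the replicate block (adjusted p = 0.0627). The same KO call was lost with 1 added in place of 16 and with the hybridisation run as a block. It did not hold without the second hybridisation day, without an intensity trend or with array quality weights. The WT call was lost without array 1 of WT 24 h (adjusted p = 0.106), and the call in the mean held in all 28 alternatives.

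Bub1, the kinase that recruits checkpoint proteins to kinetochores, measured 335, 308 and 300.0 in growing KO cells, 284, 268 and 282 in KO cells at 2 h and 516 and 303 in KO cells at 24 h. Bub1 in WT cells measured 357, 287 and 292 when growing, 362, 305 and 295 at 2 h and 491 and 421 in the 24 h samples. Both WT arrays at 24 h exceeded the growing arrays, whereas KO replicate 2 lay within the growing range. Bub1 differed by 0.42 ± 0.12 (adjusted p = 0.0193) in the mean of both genotypes, a call lost without either of array 1 of KO 24 h and array 1 of WT 24 h (adjusted p of 0.0891 to 0.157, with a difference of 0.24 without array 1 of KO 24 h) and with all probe sets of the gene averaged (difference of 0.20, adjusted p = 0.175), and its other probe set gave -0.027. In WT cells Bub1 was called with the replicate block (adjusted p = 0.0343). Ttk, the Mps1 kinase at the top of the checkpoint, was called in WT cells with 0.53 ± 0.16 (adjusted p = 0.0405) and gave 0.049 ± 0.16 in KO cells. The WT call was lost without any one of array 1 of KO 2 h, arrays 2 and 3 of WT growing, arrays 2 and 3 of WT 2 h and array 1 of WT 24 h (adjusted p of 0.0501 to 0.389), and with the replicate block Ttk was called in the mean too (adjusted p = 0.0446).

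Of the Cdk1 group, 1 of 5 was called at 24 h in the mean of both genotypes, near the 21.0% of all probe sets. Ccnb2, a B-type cyclin partner of Cdk1, measured 446, 413 and 406 in growing KO cells, 406, 384 and 392 in KO cells at 2 h and 624 and 575 in KO cells at 24 h. Ccnb2 in WT cells measured 555, 459 and 384 when growing, 558, 475 and 416 at 2 h and 798 and 599.6 in the 24 h samples. The arrays at 24 h lay above the growing arrays in both genotypes. The difference was 0.49 ± 0.16 in KO cells (adjusted p = 0.0656, or 0.0491 with the replicate block), 0.57 ± 0.16 (adjusted p = 0.0323) in WT cells and 0.53 ± 0.11 (adjusted p = 0.00259) in the mean. The WT call was lost without any one of arrays 2 and 3 of WT growing and array 1 of WT 24 h (adjusted p of 0.062 to 0.39, with a difference of 0.37 without array 1 of WT 24 h), and the call in the mean held in all 28 alternatives. Cdk1 itself differed by 0.090 ± 0.10 and Ccna2, the A-type cyclin of S phase and G2, by -0.12 ± 0.11, neither of which was called.

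In the anaphase group, 1 of 3 rose at 24 h in the mean of both genotypes, against 13.0% of all probe sets. Pttg1, securin, which holds separase inactive until anaphase, measured 943, 741 and 788 in growing KO cells, 974, 776 and 1105 in KO cells at 2 h and 1685 and 1389.6 in KO cells at 24 h. Pttg1 in WT cells measured 2219.6, 1759.9 and 1317 when growing, 2203, 1552 and 1471 at 2 h and 3399.8 and 2194 in the 24 h samples. KO arrays at 24 h exceeded the growing KO arrays, while WT replicate 2 at 24 h lay just within the growing WT range. The difference was 0.89 ± 0.23 (adjusted p = 0.0233) in KO cells and 0.77 ± 0.16 (adjusted p = 0.00219) in the mean. A further Pttg1 probe set was called in the mean with 0.56, and the third gave 0.11 and was not. The KO call was lost without any one of arrays 2 and 3 of KO growing and array 1 of KO 24 h (adjusted p of 0.0637 to 0.211) and with all probe sets of the gene averaged (difference of 0.54, adjusted p = 0.0603). Averaged over its probe sets, Pttg1 differed by 0.48 in the mean, still called, and with the replicate block it was also called in WT cells (adjusted p = 0.03).

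Chromosome structure genes were called higher at 24 h in 1 of 4 cases in the mean of both genotypes and in 2 of 4 in WT cells. The shares of all probe sets called higher were 13.0% and 5.37%. Smc4, an ATPase subunit of condensin, measured 531, 421 and 447 in growing KO cells, 489, 407 and 465 in KO cells at 2 h and 643 and 575 in KO cells at 24 h. Smc4 in WT cells measured 410.3, 449 and 372 when growing, 536, 509 and 488 at 2 h and 647 and 568 in the 24 h samples. Arrays at 24 h exceeded growing arrays in both genotypes. The difference was 0.55 ± 0.14 (adjusted p = 0.0171) in WT cells and 0.46 ± 0.097 (adjusted p = 0.00219) in the mean, but its other probe sets gave -0.014 and 0.27 and were not called. The WT call was lost without either of array 3 of WT growing and array 1 of WT 24 h (adjusted p of 0.0641 to 0.204) and with all probe sets of the gene averaged (difference of 0.32, adjusted p = 0.234), and the call in the mean with all probe sets of the gene averaged (difference of 0.24, adjusted p = 0.132). Mki67, the Ki-67 protein that coats mitotic chromosomes, measured 311, 273 and 261 in growing KO cells, 231, 203 and 236 in KO cells at 2 h and 302 and 258 in KO cells at 24 h. Mki67 in WT cells measured 291, 303 and 314 when growing, 344, 361 and 326 at 2 h and 408 and 421 in the 24 h samples. The WT arrays were ordered by state with no overlap, growing below 2 h and 2 h below 24 h, while KO arrays at 24 h overlapped the growing KO range. The difference at 24 h was 0.44 ± 0.13 (adjusted p = 0.0389) in WT cells and -0.010 ± 0.13 in KO cells, and the WT call was lost without any one of array 2 of KO growing, arrays 1, 2 and 3 of WT growing, array 2 of WT 2 h and arrays 1 and 2 of WT 24 h (adjusted p of 0.0502 to 0.177) and when both high-18S arrays were left out (adjusted p = 0.0976).

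Nek2, a kinase that parts the centrosomes, went the other way. Nek2 measured 89.3, 79.6 and 112 in growing KO cells, 86.0, 127 and 66.7 in KO cells at 2 h and 71.9 and 43.0 in KO cells at 24 h. Nek2 in WT cells measured 81.1, 83.9 and 75.3 when growing, 67.4, 65.4 and 63.2 at 2 h and 62.7 and 64.8 in the 24 h samples. Arrays at 24 h lay below all growing arrays in both genotypes. The difference was -0.43 ± 0.15 (adjusted p = 0.0426) in the mean, close to the threshold, and it was lost in 11 of the 16 fits that left out 1 array, without any one of arrays 1 and 3 of KO growing, array 1 of KO 2 h, array 2 of KO 24 h, arrays 1, 2 and 3 of WT growing, arrays 2 and 3 of WT 2 h and arrays 1 and 2 of WT 24 h (adjusted p of 0.0512 to 0.204, with a difference of -0.29 without array 2 of KO 24 h). With 64 added in place of 16 its difference was -0.28, still called. The Nek2 call was also lost with no filter, with the hybridisation run as a block, without the second hybridisation day, without an intensity trend and with array quality weights. None of the 4 centromere genes and none of the 6 mitotic kinesins was called by limma at 24 h against growing cells in the mean of both genotypes (0 and 3 at an unadjusted p under 0.05, against 33.3% of all probe sets), with medians of 0.17 and 0.20.

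Counts at 24 h depended on single arrays. The shares of all probe sets called in the fits without an array are not given here. The drops are therefore not shown to be particular to mitotic genes. The 5 KO genes became 0 without array 1 of KO 24 h, 1 without array 3 of KO growing, 2 without array 2 and 3 without array 1 of that group, and 8 called (7 higher) without array 2 of KO 24 h. The 8 WT genes became 2 without array 1 of WT 24 h, 3 without array 3 of WT growing and 5 without array 2 of WT growing. Without overlap between groups, 15 of 41 genes were higher and 5 lower at 24 h in KO cells (27.9% and 14.2% of all probe sets), and 20 higher and 3 lower in WT cells (20.5% and 15.1%). Cenpe is 1 of the 15 KO genes, at 13.4 and 16.8 at 24 h. It was tested only because its KO 24 h mean was above the level of dim probe sets. Its place in that count and in the KO median at 24 h is therefore no separate result. In both genotypes at the same time, 9 genes lay above (12.1% of all probe sets) and 2 below (7.03%). Within hybridisation run 3 the KO median of the 41 genes at 24 h was 0.070 against 0.045 for all probe sets, and within run 1 the WT median was 0.39 against 0.048. At 24 h, 2 of the 19 fibroblast genes were called higher (13.0% of all probe sets), with a list median of 0.24, and their part in the rise was not tested.

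**Figure D2:**
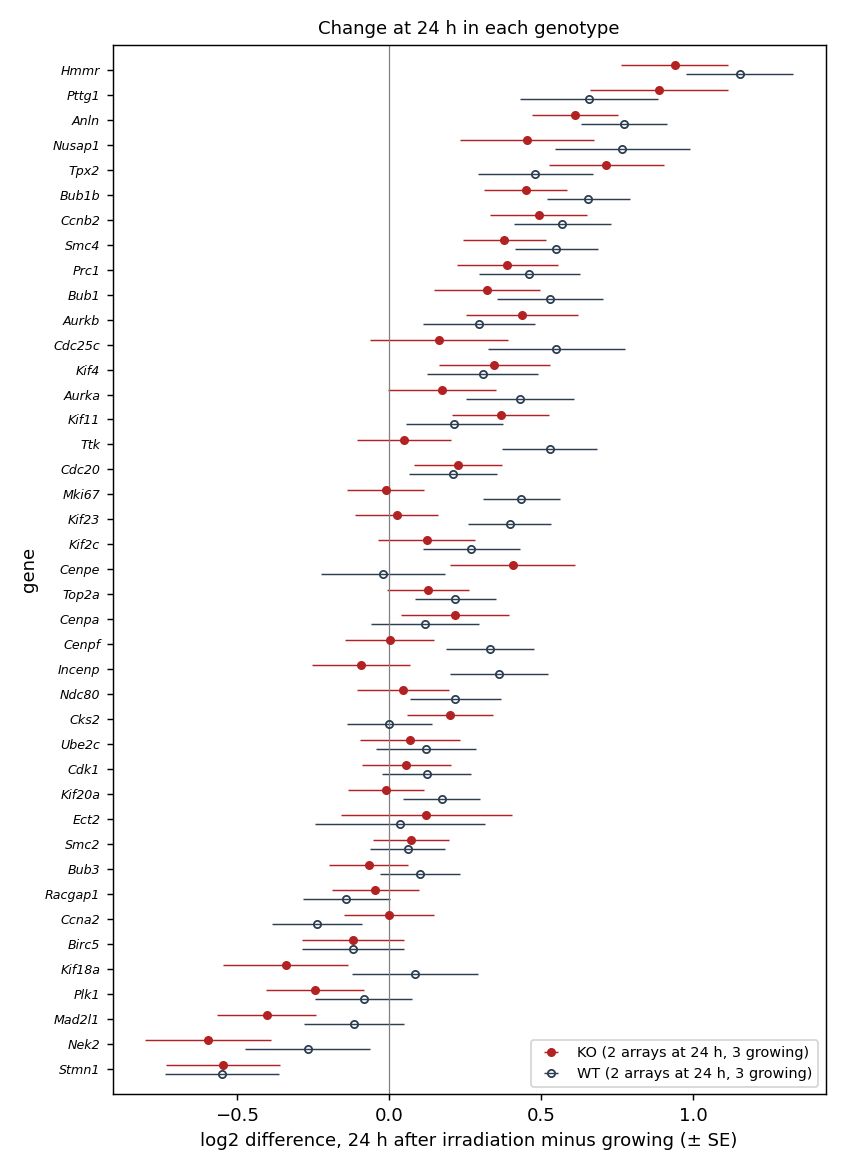
Log2 difference ± SE between 24 h after irradiation and growing cells (across) for each of the 41 mitotic genes (down the page, sorted by the mean of both genotypes), in KO cells (filled, red) above WT cells (open, dark). Hmmr stands at 0.94 in KO and 1.15 in WT cells, and Nek2 and Stmn1 at the foot lie left of 0 in both.

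At 2 h after irradiation few mitotic genes changed past the test. In KO cells 0 of 41 were called by limma (0.107% of all probe sets called), although 34 of 41 lay below 0 with a median of -0.12, against 0.035 over all probe sets. At an unadjusted p under 0.05, 13 of the 41 genes were lower in KO cells and 0 higher, where 2.23% of all probe sets were lower at that level. In WT cells 1 gene, Kif18a, fell (0.147% called) and the median was -0.027 against -0.034. In the mean of both genotypes Kif18a was again the 1 called gene (0.395% called), and the median was -0.095 against 0.00075. No non-overlapping KO gene was higher at 2 h and 13 were lower (10.1% and 5.84% of all probe sets), while in WT cells 3 were higher and 5 lower (4.75% and 8.17%). Aurka and Kif18a lay below in both genotypes (0.429% of all probe sets).

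Kif18a, a kinesin that damps chromosome movement at the metaphase plate, measured 49.7, 58.7 and 75.3 in growing KO cells, 34.3, 40.8 and 45.3 in KO cells at 2 h and 44.4 and 44.5 in KO cells at 24 h. Kif18a in WT cells measured 99.8, 55.8 and 95.7 when growing, 27.3, 35.9 and 42.6 at 2 h and 85.6 and 89.4 in the 24 h samples. In both genotypes the 2 h arrays lay below every growing array. The difference was -0.45 ± 0.18 in KO cells (adjusted p = 0.542), -0.94 ± 0.18 (adjusted p = 0.049) in WT cells and -0.70 ± 0.13 (adjusted p = 0.0158) in the mean. The WT call was lost in 14 of the 16 fits that left out 1 array, without any one of arrays 1 and 2 of KO growing, arrays 1, 2 and 3 of KO 2 h, arrays 1 and 2 of KO 24 h, arrays 1 and 3 of WT growing, arrays 1, 2 and 3 of WT 2 h and arrays 1 and 2 of WT 24 h (adjusted p of 0.0537 to 0.281). It was also lost when both high-18S arrays were left out (adjusted p = 0.317). The WT call did not hold with quantile normalization, no filter, no second hybridisation day, no intensity trend or array quality weights. The call in the mean was lost without any one of array 3 of KO growing, array 1 of KO 2 h, arrays 1 and 3 of WT growing and array 1 of WT 2 h (adjusted p of 0.0506 to 0.0629) and when both high-18S arrays were left out (adjusted p = 0.126). With 64 added in place of 16 the difference was -0.56 in WT cells (adjusted p = 0.0572), no longer called, and -0.41 in the mean, still called.

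Aurka, the Aurora A kinase of centrosomes and spindle poles, measured 594, 494 and 676 in growing KO cells, 455, 326 and 452 in KO cells at 2 h and 699 and 624 in KO cells at 24 h. Aurka in WT cells measured 524, 611 and 427 when growing, 402, 405 and 392 at 2 h and 806 and 608 in the 24 h samples. The 2 h arrays were below the growing arrays in both genotypes. The difference at 2 h was -0.50 ± 0.16 in KO cells (adjusted p = 0.45) and -0.35 ± 0.16 in WT cells (adjusted p = 0.594). It was -0.43 ± 0.11 in the mean (adjusted p = 0.178), and none of these was called. Cks2, the small subunit that docks Cdk1 to its substrates, measured 1169.9, 1099 and 1327 in growing KO cells, 948, 818 and 1127 in KO cells at 2 h and 1447 and 1309 in KO cells at 24 h. Cks2 in WT cells measured 1404, 1400.3 and 1410.5 when growing, 1085, 937 and 1141 at 2 h and 1411 and 1401 in the 24 h samples. The WT arrays at 2 h lay below the growing range, and KO replicate 3 at 2 h fell within it. Cks2 differed by -0.41 ± 0.13 in WT cells at 2 h (adjusted p = 0.37), and Prc1 by -0.41 ± 0.15 in KO cells (adjusted p = 0.471) and -0.38 ± 0.10 in the mean (adjusted p = 0.255). With the replicate block Cks2 was a further call in the mean (adjusted p = 0.0283), which made 2 called genes at 2 h. Within runs, the KO median of the 41 genes at 2 h was -0.12 in run 3 and -0.16 in run 4, and the WT medians were -0.011, -0.049 and 0.015 in runs 1, 2 and 4.

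Between 24 h and 2 h after irradiation, the mitotic genes differed most. In the mean of both genotypes 19 of 41 were higher at 24 h and 1, Stmn1, was lower, where 19.0% of all probe sets were called in either direction, 11.9% higher and 7.02% lower. The median of the 41 genes was 0.32, against 0.070 over all probe sets. This comparison uses the same 24 h and 2 h arrays as the comparisons with growing cells, so its calls add no independent samples. Every role had at least 1 higher member, with 4 of 6 kinesins and 4 of 5 spindle assembly genes. Without array 1 of KO 24 h the called genes numbered 11 in place of 20, and without array 1 of WT 24 h they numbered 12.

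The largest differences between 24 h and 2 h were 1.03 ± 0.12 (adjusted p = 3.84e-05) for Hmmr, 0.88 ± 0.10 (adjusted p = 2.13e-05) for Anln and 0.82 ± 0.16 (adjusted p = 0.00151) for Nusap1, and these 3 calls held in all 28 alternatives, with 0.49 for Nusap1 averaged over its probe sets. Prc1 followed with 0.80 ± 0.12 (adjusted p = 0.000187). Genes called here and not between 24 h and growing cells in the mean of both genotypes were Cks2, Aurka, Incenp, Cenpf, Kif18a, Kif23, Kif2c, Kif4 and Mki67. Cks2 differed by 0.47 ± 0.099 (adjusted p = 0.00327) and Aurka by 0.73 ± 0.13 (adjusted p = 0.000671). Both had lain lower at 2 h than in growing cells, without a call there.

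Incenp, the scaffold of the chromosomal passenger complex, measured 552, 559 and 454 in growing KO cells, 353, 414 and 403 in KO cells at 2 h and 579 and 408 in KO cells at 24 h. Incenp in WT cells measured 542, 503 and 531 when growing, 431, 517 and 529 at 2 h and 775 and 596 in the 24 h samples. KO arrays at 2 h lay below the growing arrays, and those at 24 h reached from the 2 h range to above the growing range. WT arrays at 24 h lay above all other WT arrays. Incenp differed by 0.38 ± 0.11 (adjusted p = 0.024) between 24 h and 2 h, a call lost without any one of array 1 of KO 2 h, array 1 of KO 24 h, array 1 of WT 2 h and array 1 of WT 24 h (adjusted p of 0.0554 to 0.163). Cenpf, a large kinetochore protein, measured 313, 314 and 318 in growing KO cells, 263, 259.6 and 236 in KO cells at 2 h and 336 and 295 in KO cells at 24 h. Cenpf in WT cells measured 307, 327 and 243 when growing, 314, 280.4 and 265 at 2 h and 418 and 325 in the 24 h samples. The KO arrays at 2 h lay below all other KO arrays. Cenpf differed by 0.33 ± 0.10 (adjusted p = 0.0328), a call lost without any one of array 3 of KO 2 h, array 1 of KO 24 h, arrays 2 and 3 of WT 2 h and array 1 of WT 24 h (adjusted p of 0.0592 to 0.179), when both high-18S arrays were left out (adjusted p = 0.0501) and with the replicate block (adjusted p = 0.0613).

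Kif2c, a kinesin that takes microtubule ends apart, measured 284, 228 and 283 in growing KO cells, 229, 164 and 200.2 in KO cells at 2 h and 305 and 273 in KO cells at 24 h. Kif2c in WT cells measured 230.0, 239.8 and 221 when growing, 267, 212 and 200.1 at 2 h and 311 and 254 in the 24 h samples. KO arrays at 24 h lay above the 2 h arrays, and in WT cells the ranges overlapped. Kif2c differed by 0.41 ± 0.11 (adjusted p = 0.0157), a call lost without either of array 1 of KO 24 h and array 1 of WT 24 h (adjusted p of 0.0709 to 0.0879). Kif4, a kinesin that travels on chromosome arms, measured 80.9, 80.7 and 69.3 in growing KO cells, 69.4, 79.8 and 62.5 in KO cells at 2 h and 125 and 82.7 in KO cells at 24 h. Kif4 in WT cells measured 97.3, 65.6 and 99.1 when growing, 81.2, 66.3 and 68.8 at 2 h and 109.7 and 111 in the 24 h samples. The 24 h arrays lay above the growing and the 2 h arrays in both genotypes. Kif4 differed by 0.49 ± 0.13 (adjusted p = 0.013), a call lost without array 1 of KO 24 h (adjusted p = 0.0988). Kif18a differed by 0.57 ± 0.15 (adjusted p = 0.0109) in the mean, with KO arrays at 24 h of 44.4 and 44.5 inside the KO range at 2 h.

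Further calls between 24 h and 2 h were Ccnb2 with 0.55 ± 0.11, Bub1 with 0.49 ± 0.12, Bub1b with 0.43 ± 0.096, Pttg1 with 0.68 ± 0.16, Tpx2 with 0.69 ± 0.13 and Smc4 with 0.33 ± 0.097. Kif23 differed by 0.33 ± 0.097, Mki67 by 0.28 ± 0.090 and Stmn1 by -0.57 ± 0.13. The call of Bub1 was lost without either of array 1 of KO 24 h and array 1 of WT 24 h (adjusted p of 0.0545 to 0.0819, with a difference of 0.30 without array 1 of KO 24 h) and of Pttg1 without array 1 of WT 24 h (adjusted p = 0.0556). The same held for Stmn1 without array 1 of KO 24 h (adjusted p = 0.0557), Smc4 without any one of array 2 of KO 2 h, array 1 of KO 24 h, array 3 of WT 2 h and array 1 of WT 24 h (adjusted p of 0.0533 to 0.104), when both high-18S arrays were left out (adjusted p = 0.0634) and with all probe sets of the gene averaged (difference of 0.13, adjusted p = 0.449), Kif23 without any one of array 1 of KO 2 h, array 1 of KO 24 h, array 3 of WT 2 h and array 1 of WT 24 h (adjusted p of 0.0522 to 0.106) and with the replicate block (adjusted p = 0.05003) and Mki67 without any one of array 2 of KO 2 h, array 1 of KO 24 h, arrays 1 and 3 of WT 2 h and arrays 1 and 2 of WT 24 h (adjusted p of 0.054 to 0.148) and when both high-18S arrays were left out (adjusted p = 0.0828). Averaged over probe sets, Bub1 differed by 0.30 and Pttg1 by 0.40, both still called. The replicate block added calls of Ttk (adjusted p = 0.0318) and of Cdc25c, the phosphatase that switches on Cdk1 (adjusted p = 0.0336).

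Between genotypes, a few mitotic genes were lower in KO cells. In the mean of the 3 states, Pttg1, Ttk, Stmn1 and Mki67 were lower and Kif23 was higher, 5 of 41 genes where 4.13% of all probe sets were called, 2.01% higher and 2.12% lower. The median of the 41 genes was -0.059, against 0.013 over all probe sets. State by state, Pttg1 was the 1 gene called in growing cells (0.248% of all probe sets), Mki67 the 1 gene called at 2 h (0.395%), and 0 were called at 24 h (0.0620%). With the replicate block the counts were 2 in growing cells and 3 at 2 h, and Nusap1 was called lower in the mean of the states (adjusted p = 0.0121). At 24 h, 6 of the 41 genes were lower at an unadjusted p under 0.05 (4.19% of all probe sets) and 0 were higher. At 2 h the median was -0.14 against 0.045 over all, and 13 of 41 genes lay below WT without overlap against 0 above (8.61% and 13.6% of all probe sets). In growing cells 5 lay below and 4 above (9.45% and 7.08%), and at 24 h 9 lay below and 4 above (15.1% and 19.8%).

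Pttg1, securin, was the 1 mitotic gene whose KO arrays lay below every WT array in each of the 3 states (1.14% of all probe sets), with the values given for it above. Its group means were 824 ± 106 in KO against 1766 ± 451 in WT growing cells (SD, n = 3 each). At 2 h they were 952 ± 165 in KO against 1742 ± 401 in WT cells (SD, n = 3 each). At 24 h they were 1537 ± 209 in KO against 2797 ± 853 in WT cells (SD, n = 2 each). The log2 difference was -1.06 ± 0.20 (adjusted p = 0.0322) in growing cells, -0.85 ± 0.20 at 2 h (adjusted p = 0.0692, or 0.00821 with the replicate block), -0.83 ± 0.25 (adjusted p = 0.307) at 24 h and -0.91 ± 0.13 (adjusted p = 0.000396) in the mean of the states. All 3 of its probe sets were called in that mean, with differences from -1.09 to -0.59. The call in growing cells was lost without any one of arrays 1, 2 and 3 of KO growing, array 1 of KO 2 h and arrays 1 and 2 of WT growing (adjusted p of 0.0527 to 0.153) and when both high-18S arrays were left out (adjusted p = 0.141), and the call in the mean held in all 28 alternatives. The call in growing cells was also lost with no filter, without the second hybridisation day and without an intensity trend. Within runs the difference in growing cells was -1.22 in run 1 and -0.73 in run 4.

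Ttk measured 193, 154 and 157 in growing KO cells, 139, 126 and 157 in KO cells at 2 h and 190.1 and 159 in KO cells at 24 h. Ttk in WT cells measured 222, 178 and 182 when growing, 243, 206 and 215 at 2 h and 321 and 254 in the 24 h samples. KO arrays lay below WT arrays at 2 h and at 24 h and overlapped them in growing cells. The difference was -0.60 ± 0.14 at 2 h (adjusted p = 0.0645, or 0.0192 with the replicate block), -0.67 ± 0.17 at 24 h (adjusted p = 0.224) and -0.49 ± 0.087 (adjusted p = 0.00321) in the mean, and the call in the mean held in all 28 alternatives. For Mki67, whose values are given above, KO arrays also lay below WT arrays at 2 h and at 24 h. It differed by -0.59 ± 0.11 (adjusted p = 0.0238) at 2 h and -0.41 ± 0.071 (adjusted p = 0.00244) in the mean. The 2 h call was lost without any one of arrays 1, 2 and 3 of KO 2 h and arrays 1, 2 and 3 of WT 2 h (adjusted p of 0.0596 to 0.11) and when both high-18S arrays were left out (adjusted p = 0.116), while the call in the mean held in all 28 alternatives.

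Stmn1 lay below WT without overlap in growing cells and at 2 h, but not at 24 h. It differed by -0.42 ± 0.17 in growing cells, -0.61 ± 0.17 at 2 h and -0.48 ± 0.10 (adjusted p = 0.0125) in the mean, and its other probe set gave -0.35 in the mean and was not called. The call was lost without the second hybridisation day (adjusted p = 0.0573). Kif23, the MKLP1 kinesin of the central spindle, measured 299, 277 and 271 in growing KO cells, 204, 228 and 231 in KO cells at 2 h and 294 and 280.4 in KO cells at 24 h. Kif23 in WT cells measured 183, 211 and 167 when growing, 210.3, 216 and 177 at 2 h and 269 and 233 in the 24 h samples. KO arrays lay above WT arrays in growing cells and at 24 h and overlapped them at 2 h. The difference was 0.56 ± 0.12 in growing cells (adjusted p = 0.0633, or 0.0365 with the replicate block) and 0.29 ± 0.076 (adjusted p = 0.0363) in the mean. That call was lost in 11 of the 16 fits that left out 1 array, without any one of arrays 1, 2 and 3 of KO growing, arrays 2 and 3 of KO 2 h, arrays 1 and 2 of KO 24 h, arrays 1 and 3 of WT growing, array 3 of WT 2 h and array 2 of WT 24 h (adjusted p of 0.0561 to 0.0884). It was also lost when both high-18S arrays were left out (adjusted p = 0.0932) and with all probe sets of the gene averaged (adjusted p = 0.124). Kif18a gave -0.78 ± 0.23 at 24 h (adjusted p = 0.287), among the 3 largest genotype differences at that time with Pttg1 and Ttk, and was not called. A dim Cdc20 probe set was called with -0.89 in the mean, while the brighter probe set that stood for Cdc20, the activator of the anaphase-promoting complex, gave -0.13.

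Markers of primitive endoderm, a cell type that ES cultures can give rise to, also differed between genotypes. In the mean of the 3 states 6 of 16 tested were higher in KO cells and 0 lower, against 2.01% and 2.12% of all probe sets. The summed intensity of the 18 listed markers was 1872 to 1954 in KO and 1157 to 1705 in WT growing cells. It was 1640 to 1997 in KO and 1155 to 1808 in WT cells at 2 h, and 2323 to 2822 in KO and 1901 to 2430.4 in WT cells at 24 h. None was at 0, and 2 of 18 in each KO group and 3 to 6 of 18 in WT groups were below the level of dim probe sets on every array. Their part in the genotype differences was not tested.

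**Figure D3:**
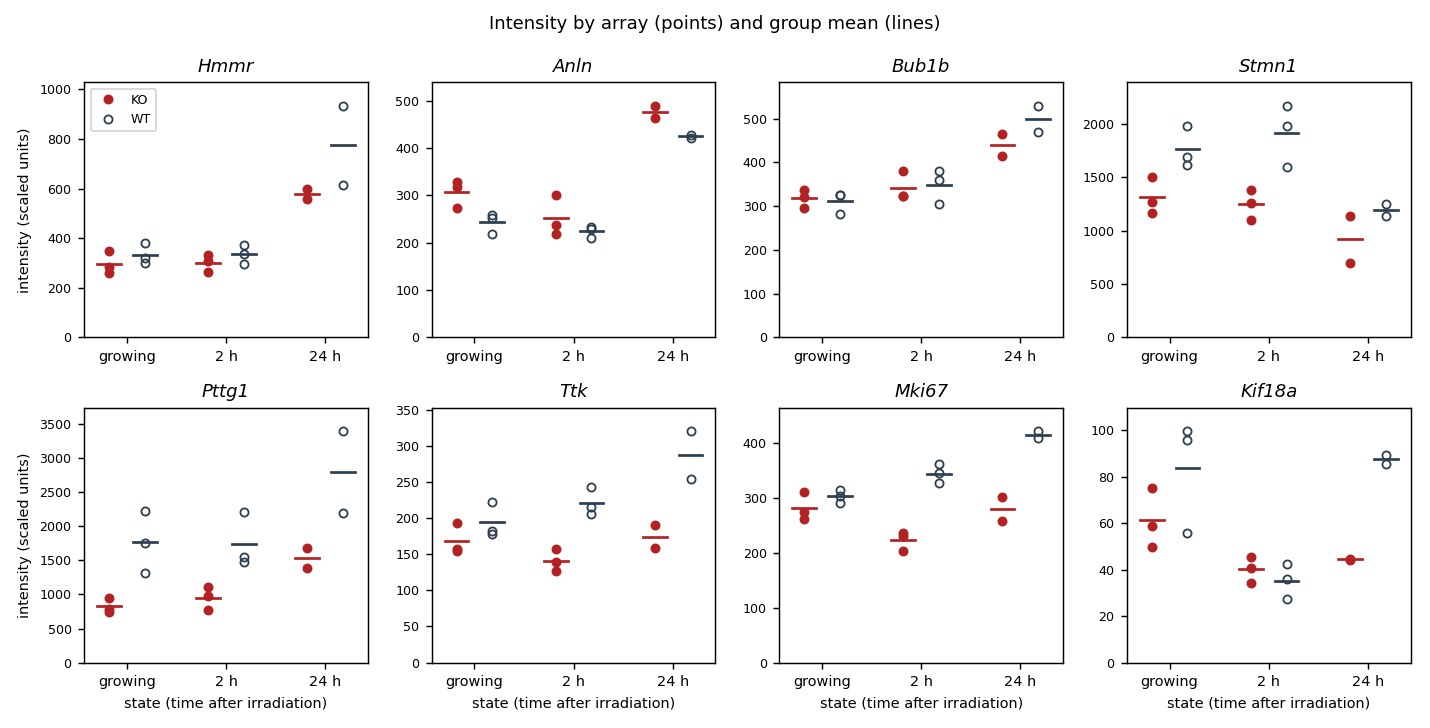
Intensity in scaled units (up the page) on each array for 8 mitotic genes by state, from growing to 2 h to 24 h after irradiation (across), with KO (filled) left of WT (open) and lines at group means. Hmmr, Anln and Bub1b are highest at 24 h in both genotypes, Stmn1 is lowest there, Pttg1 is lower in KO than in WT cells in every state, and Kif18a is low at 2 h.

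**Figure D4:**
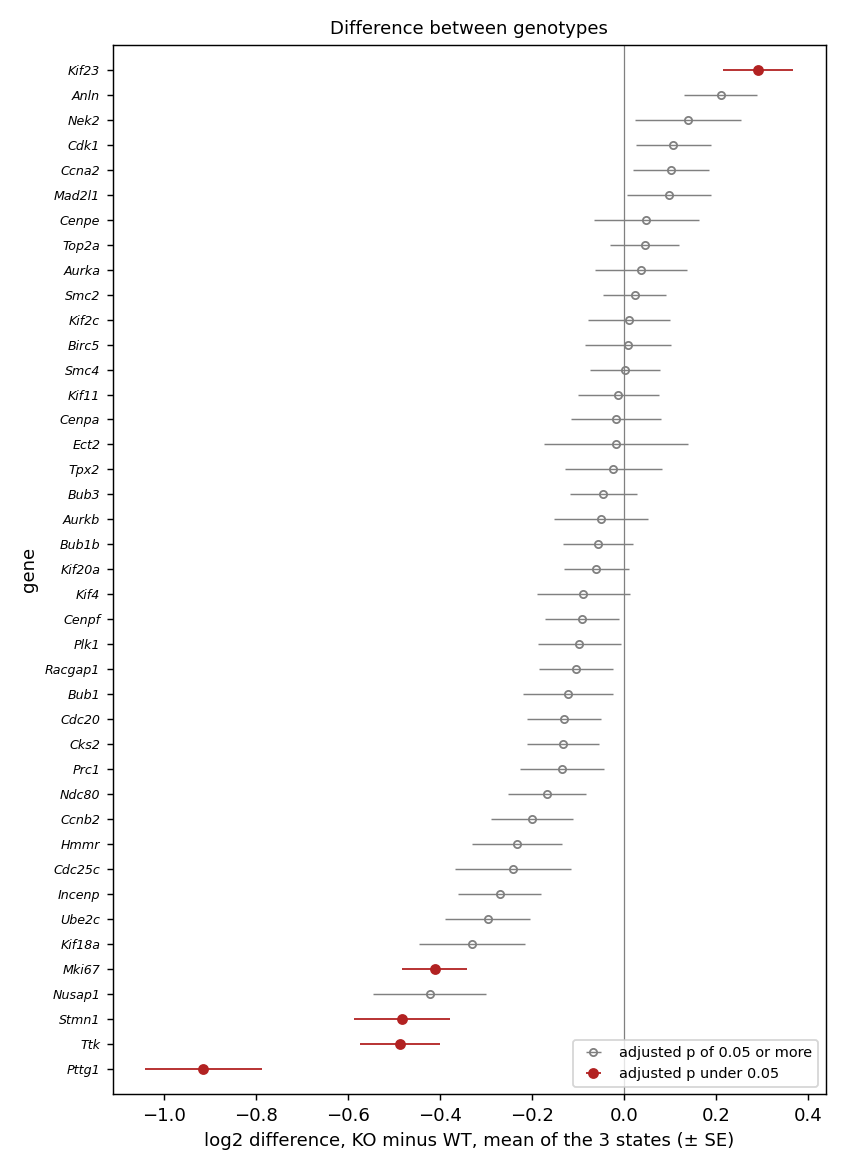
Log2 difference ± SE between KO and WT in the mean of the 3 states (across) for each of the 41 mitotic genes (down the page, sorted by size), filled where the adjusted p was under 0.05. Pttg1 is lowest at -0.91, followed by Ttk, Stmn1 and Mki67 among the filled points, and Kif23 at 0.29 is the 1 filled point right of 0.

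Whether irradiation acted differently by genotype was tested as an interaction, the change in KO minus the change in WT cells. No mitotic gene was called by limma at 2 h or at 24 h (0 of 41, and 0% of all probe sets), and the medians were -0.15 and -0.15, against 0.058 and 0.045 over all probe sets. At an unadjusted p under 0.05, 4 genes were lower at 2 h (2.07% of all probe sets) and 2 at 24 h (1.44%), and 0 were higher at either time. The largest values at 2 h were 0.49 ± 0.26 for Kif18a, -0.49 ± 0.16 for Mki67 and -0.43 ± 0.17 for Kif23. At 24 h they were -0.48 ± 0.22 for Ttk, -0.45 ± 0.18 for Mki67 and -0.45 ± 0.23 for Incenp. Genes called in one genotype and not in the other were therefore not shown to differ between them.

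The members with the highest intensity in the remaining roles changed little. Bub3, the checkpoint partner of Bub1 and Bub1b, measured 736, 708 and 791 in growing KO cells, 729, 669 and 710.3 in KO cells at 2 h and 734 and 687 in KO cells at 24 h. Bub3 in WT cells measured 722, 723 and 759 when growing, 621, 701 and 799.6 at 2 h and 872 and 714 in the 24 h samples. Bub3 groups overlapped between states in KO cells, and it differed by 0.017 ± 0.092 at 24 h in the mean. Birc5, survivin of the passenger complex, measured 614, 582 and 594 in growing KO cells, 639, 541 and 732 in KO cells at 2 h and 604 and 497 in KO cells at 24 h. Birc5 in WT cells measured 747, 494 and 681 when growing, 535, 556 and 569 at 2 h and 653 and 515 in the 24 h samples. WT growing replicate 1 was the highest Birc5 array, and the difference at 24 h was -0.12 ± 0.12. Cenpa, the centromeric histone H3 variant, measured 505, 487 and 461 in growing KO cells, 442, 514 and 445 in KO cells at 2 h and 621 and 514 in KO cells at 24 h. Cenpa in WT cells measured 711, 409 and 487 when growing, 432, 439.8 and 468 at 2 h and 635 and 507 in the 24 h samples. KO arrays at 24 h lay above growing KO arrays, and the difference in the mean was 0.17 ± 0.12, not called.

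Kif20a, a kinesin of cytokinesis, measured 336, 263 and 295 in growing KO cells, 242, 229.5 and 255 in KO cells at 2 h and 283 and 306 in KO cells at 24 h. Kif20a in WT cells measured 261, 273 and 279 when growing, 293, 276 and 298 at 2 h and 308 and 307 in the 24 h samples. KO arrays at 2 h lay below all other KO arrays, and Kif20a differed by -0.28 ± 0.11 at 2 h in KO cells (adjusted p = 0.539). Top2a, the topoisomerase that untangles chromatids, measured 1023, 1031 and 1095 in growing KO cells, 1019, 935 and 979.6 in KO cells at 2 h and 1230.3 and 1072 in KO cells at 24 h. Top2a in WT cells measured 952, 947 and 925 when growing, 1204, 915 and 1008 at 2 h and 1211 and 994 in the 24 h samples. WT arrays at 24 h lay above growing WT arrays, and the difference was 0.17 ± 0.094 in the mean, not called. Aurkb, the kinase of the passenger complex, came close to the threshold at 24 h with 0.37 ± 0.13 (adjusted p = 0.0516). Cenpe, a kinetochore kinesin, was dim, at 6.15 to 16.8 over the 16 arrays, and was under the level of dim probe sets, an intensity of 11.9, on every growing KO array. The 14 members not yet given by array were not called in any of the 13 comparisons.

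The wider mitotic programme was described with 78 further genes, of which 58 were tested. At 24 h in the mean of both genotypes 12 were higher and 4 lower (13.0% and 7.98% of all probe sets), with a median of 0.046 against 0.074 over all probe sets. Log2 differences among those higher were 0.91 for the spindle protein Ckap2, 0.78 for the kinetochore protein Zwilch, 0.50 for the Greatwall kinase Mastl and 0.49 for the condensin subunit Ncapg. Lower were Ska1 at -0.68, Trip13 at -0.66, Lmnb1 at -0.59 and Anapc1 at -0.30. At 2 h 0 were called by limma in either genotype, while at an unadjusted p under 0.05 there were 3 higher and 5 lower in KO cells (5.75% and 2.23% of all probe sets) and 7 higher and 2 lower in WT cells (2.82% and 5.28%). In KO against WT in the mean of the states 3 were higher and 3 lower (2.01% and 2.12% of all probe sets), among them Dlgap5, a microtubule-binding protein, at -0.65 and Aspm, a spindle pole protein, at -0.41.

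Genes that p53 can induce, brakes on the cell cycle among them, rose in most cases at both times. Of 8 such genes, 5 were higher at 2 h in the mean of both genotypes (0.338% of all probe sets) and 6 at 24 h (13.0%). The Cdk inhibitor Cdkn1a differed by 1.67 ± 0.16 at 2 h and 1.70 ± 0.18 at 24 h, and the antiproliferative gene Btg2 by 1.65 ± 0.12 and 1.80 ± 0.14. Plk2 rose by 1.58 and 1.82, Mdm2, which degrades p53, by 1.33 and 1.55, and Ccng1 by 0.61 and 1.13. Gadd45a, which can inhibit Cdk1, was called at 24 h with 0.80 and gave -0.024 at 2 h. None of the 8 was called by limma between genotypes in any state, and 1 gene was higher at an unadjusted p under 0.05, in growing KO cells (4.65% of all probe sets).

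Regulators of mitotic gene transcription were listed as 16 genes, of which 13 were tested. At 24 h in the mean of both genotypes 1 was higher and 4 were lower, against 13.0% and 7.98% of all probe sets. Rbl2, the pocket protein p130 of the repressive DREAM complex, was higher by 0.54 ± 0.12. Its probe set was dim, with a mean intensity of 15.3 over the 16 arrays, near the level of dim probe sets of 11.9. Rbl2 has 2 probe sets, and the dimmer is not reported here. The E2F factor E2f4, its partner Tfdp1, the CCAAT-binding subunit Nfyc and the activator Mybl2 were lower, with differences of -0.74, -0.49, -0.49 and -0.28 on the log2 scale. In KO against WT in the mean of the states, Mybl2 at 0.37 and E2f4 at 0.38 were higher and Lin37, a DREAM subunit, at -0.42 was lower. At 2 h 0 of the 13 were called by limma in either genotype, and at an unadjusted p under 0.05 there were 0 in KO cells and 1, higher, in WT cells (2.82% of all probe sets).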

How the data were processed

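The intensities analysed are those deposited by the authors, 1 linear value per probe set and array, scaled to the same mean on every array after 2% was trimmed at each end, as the values show. The software behind that probe set summary is not named in the sources used here. Per the labels' protocols, cells were cultured with LIF on fibroblasts stopped with mitomycin, were left 1 h on gelatin to remove these, and 5 µg of Trizol RNA went through 1 round of amplification. Array settings in the file headers give a hybridisation time for each array, on 2 days. The 4 hybridisation runs were defined here, by gaps between these times.

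Of 22690 probe sets, 64 controls were dropped, and 20393 had 1 gene symbol in the platform annotation, 691 several and 1606 none. The 41 genes had 73 probe sets, and 21 genes had only 1. Probe sets with a group mean above the 30th percentile (4.80 on the log2 scale) were tested, 17736 in all, and all 41 genes passed. Cenpe passed only through its mean in KO cells at 24 h. In R 4.3.3, limma 3.58.1 fitted 6 group means to log2(intensity + 16), with 10 residual and 8.55 prior degrees of freedom, and 13 two-sided comparisons were adjusted by Benjamini-Hochberg. Members, roles and further gene lists were chosen with earlier results of these data known. Values by array are given for each member called in any comparison and for the brightest member of each role, and the 3 largest differences are named in each comparison. The fit was tested on simulated data. Alternatives changed the added constant, the scaling, the filter, the probe set rule, blocks, the variance model and the arrays used. The labels give the groups shared experiment numbers, and every array numbered 3 was hybridised on the second day, so the number was taken to mark a shared experiment, and the fit with it as a block (the replicate block) is given where it changed a call. Same-numbered samples deviated together with correlations of -0.092 to 0.29 (median 0.12) in 36 pairs, against a median of -0.057 in the 70 other pairs of different groups. Deviations were taken from group means and cancel within a group, so the other pairs are not an independent reference. The number of arrays limits the precision. Values of the inactivated gene are not given here, and genotypes were taken from the labels.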

Additional observations from a re-analysis of the deposited data

How the results depend on the processing

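Of 54 calls of mitotic genes over the comparisons, 21 held in all 28 alternative settings and 33 were lost in at least 1, and 0 reversed. The counts were 1 for KO against WT in growing cells, 1 at 2 h and 5 in the mean of the states, 1 for 2 h in WT cells and 1 in the mean of both genotypes, and 5 for 24 h in KO and 8 in WT cells. With 64 added in place of 16, the count for 2 h in WT was 0. Quantile normalization gave 0 for 2 h in WT, 2 for 2 h in the mean and 8 for 24 h in KO. No filter gave 0 for KO against WT in growing cells and 0 for 2 h in WT, and a filter at the 50th percentile gave 2 in growing cells. Averaging all probe sets of a gene gave 2 for KO against WT at 2 h. It ended 7 calls (Kif23 for KO against WT in the mean, Pttg1 and Tpx2 for 24 h in KO, Smc4 for 24 h in WT and in the mean and against 2 h, and Bub1 for 24 h in the mean) and added 8. The replicate block gave 2 for KO against WT in growing cells, 3 at 2 h, and 2 for 2 h in the mean, and it moved no other count past 1.5 times. It ended 3 calls and added 11, all named in the report, and changed no other call. With the hybridisation run as a block these were 2, 2 and 2, and 24 h in WT was 15. Without the second day, KO against WT was 0 in growing cells, 0 at 2 h and 3 in the mean, 2 h was 0 in WT and 0 in the mean, 24 h was 1 in KO and 3 in WT, and 24 h against 2 h was 12 in place of 20. Without an intensity trend, KO against WT was 0 in growing cells and 0 at 2 h, 2 h in WT was 0 and 24 h in WT was 4. Array quality weights gave 2 for KO against WT in growing cells, 3 at 2 h, 0 for 2 h in WT and 5 for 24 h in WT. Without the arrays of high 18S signal, chosen after seeing the data, the counts for KO against WT in growing cells and at 2 h and for 2 h in WT and in the mean were 0. Leaving out 1 array at a time gave 0 to 1 for KO against WT in growing cells, 0 to 2 at 2 h, 0 to 1 for 2 h in WT, 0 to 2 for 2 h in the mean, 0 to 8 for 24 h in KO, 2 to 10 for 24 h in WT and 11 to 23 for 24 h against 2 h. Calls ended numbered 1 with 1 added, 1 with 64 added, 1 with quantile normalization, 4 with no filter, 12 without a trend, 7 with array weights, 2 when hybridisation runs were blocked, 27 when the second day was left out and 11 when both high-18S arrays were. The cause of these changes was not tested. The shares of all probe sets called in each setting are not given here, so the changes are not shown to be particular to mitotic genes. With 2 arrays in each 24 h group, the lone array left is assumed to vary like the other groups.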
